A study of Mus musculus with 6 samples.

Results

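Complex I of the respiratory chain is encoded in the mouse nucleus largely by genes whose names begin with *Nduf*. All genes with such a name in the 6 deposited libraries were taken, apart from names holding -ps, which left 49 of 54446 genes. They comprised 41 subunit names (*Ndufa*, *Ndufb*, *Ndufc*, *Ndufs*, *Ndufv* and *Ndufab*) and 8 assembly factors (*Ndufaf*). RNA came from CD8+ T cells of the spleen of C57BL/6 mice aged 8 weeks. Unstimulated cells were fresh, control cells had been stimulated for 72 h by antibodies to CD3 and CD28 without magnets, and SMF-treated cells had received the same stimulation in a static magnetic field (SMF) of 0.3 T. Each group had 2 libraries, and the sources used here do not say whether these came from separate mice, so p-values measure the spread between these libraries, which may be technical. The cells were primary and carried no transgene according to the labels.

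Levels are given as FPKM, the fragments assigned to a gene scaled to transcript length and to library size, summed over the transcripts of a gene. Differences were tested with limma on log2(FPKM + 1), and a gene was called when the groups differed at least 2-fold with p at most 0.05 before adjustment. Log2 fold changes are on the log2(FPKM + 1) scale, which understates changes of low genes, and are followed by their standard error (SE). Adjusted p means that limma's p was corrected by the Benjamini-Hochberg method over all 14991 genes whose mean reached 1 FPKM.

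The libraries differed in ways that touch every comparison below. Dates in the folder names of the file headers put Unstimulated 1 and Control 1 in June 2017, Unstimulated 2 and Control 2 in November 2017, and both SMF libraries in October 2018. The date and the field therefore cannot be told apart in any comparison with SMF-treated cells. Covered bases ranged from 64.4 Mb in Control 1 to 259 Mb in SMF 1. Of the FPKM total, protein-coding genes held 69.2% and 68.7% in the SMF libraries and between 49.1% and 50.5% in the other 4. The CD8 T cell markers *Cd8a*, *Cd8b1*, *Cd3e* and *Cd3d* were above 0 in all libraries, with a summed FPKM of 406 and 538 in unstimulated, 200 and 325 in control and 544 and 477 in SMF-treated cells. Of these, *Cd8a* was at 35.5 and 60.0 FPKM in control and 192 and 186 in SMF-treated cells. *Cd3d* was at 47.5 and 58.0 FPKM in control and 155 and 126 in SMF-treated cells. Control and SMF libraries overlapped for *Cd8b1*, at 50.3 and 123 against 94.6 and 91.9 FPKM. They overlapped also for *Cd3e*, at 66.3 and 84.4 against 102 and 72.3 FPKM. The sum of 4 activation markers, among them *Gzmb* and *Mki67*, was 27.5 and 26.8 in unstimulated, 1614 and 1708 in control and 2487 and 4536 in SMF-treated cells. In stimulated cells most of this sum was *Gzmb*, at 1494 and 1565 FPKM in control and 2282 and 4283 in SMF-treated cells. *Mki67* was at 49.3 and 60.0 FPKM in control and 73.8 and 86.3 in SMF-treated cells. Summed FPKM of 3 B cell markers was 104 and 83.0 in unstimulated cells, 23.3 and 7.63 in control cells and 4.5 and 2.43 in SMF-treated cells. The sum of 4 myeloid markers was 154 and 196 in unstimulated, 47.0 and 90.3 in control and 86.7 and 82.1 in SMF-treated cells. These 4 markers differed. *Lyz2* was listed at 0 in all stimulated libraries, and *Itgam* was at or below 0.18 FPKM there. *Csf1r* was at 68.5 and 63.9 FPKM in unstimulated, 47.0 and 53.8 in control and 41.1 and 50.4 in SMF-treated cells. *Cst3* was at 37.6 and 57.0 FPKM in unstimulated, 0 and 36.5 in control and 45.6 and 31.5 in SMF-treated cells. The part of these differences in the results below was not tested. In RNA from whole cell suspensions, fewer cells of a type and less RNA per cell cannot be told apart.

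Complex I takes electrons from NADH, passes them along a chain of iron-sulfur clusters to ubiquinone and pumps protons across the inner mitochondrial membrane. Its catalytic core lies partly in a peripheral arm that reaches into the matrix, whose core subunits are nuclear-encoded, and partly in a membrane arm, whose core subunits are encoded by mitochondrial DNA. Accessory subunits surround both arms, and assembly factors help to build the enzyme without remaining in it. Resting T cells that are activated through their antigen receptor are known to enlarge their mitochondrial content while they grow and divide.

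Promoters of respiratory chain genes often hold binding motifs of the factors NRF1, YY1 and the ETS family, so the letters of these motifs were looked up in the promoters of the members. RefSeq windows of assembly GRCm38.p6, from 250 bases before to 50 bases after the gene start, were found for 40 of the 46 protein-coding members. The motifs searched on both strands were GCGCA and GCGC with 1 free base between them for NRF1, CCGGAAG for ETS factors and AAGATGGC for YY1. The NRF1 letters occurred in 9 of the 40 genes (22.5%), against 12.7% of the 8144 protein-coding genes tested that had a window. The YY1 letters occurred in 8 genes (20.0%), against 5.91%. The ETS letters occurred in 6 genes (15.0%), against 22.6%. At least 1 of the 3 was found in 21 of the 40 genes (52.5%) and in 36.0% of the protein-coding genes tested, and in 0 member windows did matches of different motifs overlap. All 8 YY1 matches lay on the strand of the gene and past its start, with their first base 10 to 38 bases beyond the start base. Among the protein-coding genes tested, 233 of 523 YY1 matches (44.6%) lay so. The YY1 letters contain ATG, and whether the matches past the start lie at a start codon was not tested. A match of letters is a description and does not show that a factor was bound.

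Stretches are shown for a selection of members named below, not in proportion to the share of members with a motif (52.5%). The windows of *Ndufa12* and *Ndufv1*, which are not shown, hold none of the 3 motifs. Each stretch runs from 100 bases before to 30 bases after the RefSeq start. It is written 5′ to 3′ on the strand of the gene, with matches to the 3 motifs in capitals. *Ndufs6* had the largest fitted difference between SMF-treated and control cells, *Ndufb3* and *Ndufc1* were listed at 0 in both unstimulated libraries, *Ndufa8* and *Ndufb4* were higher in control than in unstimulated cells, and *Ndufs3* is a core subunit that was higher in SMF-treated cells. The stretch of *Ndufs6* (chr13:73328453-73328582, minus strand) holds the NRF1 letters, that of *Ndufa8* (chr2:36049309-36049438, minus strand) holds them once and that of *Ndufb4* (chr16:37654339-37654468, minus strand) more than once. The window of *Ndufs6* also holds the YY1 letters, 33 bases beyond the start base and so past the end of the stretch shown. The stretch of *Ndufc1* (chr3:51408926-51409055, minus strand) ends with the YY1 letters, that of *Ndufs3* (chr2:90904692-90904821, minus strand) holds the ETS letters on both strands, and that of *Ndufb3* (chr1:58586297-58586426, plus strand) holds none of the 3.
Ndufs6: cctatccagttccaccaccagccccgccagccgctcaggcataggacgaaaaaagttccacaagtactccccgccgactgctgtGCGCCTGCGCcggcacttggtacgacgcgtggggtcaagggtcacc
Ndufa8: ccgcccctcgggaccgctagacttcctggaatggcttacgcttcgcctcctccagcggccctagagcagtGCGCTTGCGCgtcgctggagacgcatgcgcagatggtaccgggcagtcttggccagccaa
Ndufb4: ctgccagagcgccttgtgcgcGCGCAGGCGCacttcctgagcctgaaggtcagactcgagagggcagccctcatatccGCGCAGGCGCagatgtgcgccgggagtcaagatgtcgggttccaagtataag
Ndufc1: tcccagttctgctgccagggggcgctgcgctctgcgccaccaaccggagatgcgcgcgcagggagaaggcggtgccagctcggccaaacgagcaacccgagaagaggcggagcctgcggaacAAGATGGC
Ndufs3: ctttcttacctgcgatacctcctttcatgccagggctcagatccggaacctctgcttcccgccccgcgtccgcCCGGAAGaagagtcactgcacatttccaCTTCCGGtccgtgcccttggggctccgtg
Ndufb3: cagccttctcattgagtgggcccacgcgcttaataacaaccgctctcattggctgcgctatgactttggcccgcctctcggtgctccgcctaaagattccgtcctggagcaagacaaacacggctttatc

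Of the 41 subunit names, 38 passed the filter of a mean of at least 1 FPKM. The 3 that did not were *Ndufa4l2* and the processed pseudogene *Ndufa11b*, both listed at 0 in every library, and the processed pseudogene *Ndufs6b*, whose highest value was 1.5 FPKM. A further processed pseudogene, *Ndufb4c*, passed the filter and is counted among the 38. The summed FPKM of these 38 genes was 525 and 630 in unstimulated, 887 and 921 in control and 1756 and 1808 in SMF-treated cells. The sums of the 3 groups did not overlap, and the libraries of a group lay closer to each other than to any library of another group. These sums were not rescaled for the share of the FPKM total held by protein-coding genes. That share was 69.2% and 68.7% in the SMF libraries and between 49.1% and 50.5% in the others. The median FPKM over the 38 was 8.15 and 12.6 in unstimulated cells, 18.3 and 21.3 in control cells, and 45.3 and 43.9 in SMF-treated cells.

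In control cells, 10 of the 38 subunit genes (26.3%) were called higher than in unstimulated cells and 0 lower. Of all genes tested 12.3% were called higher and 12.6% lower, and of the protein-coding genes 13.5% were called higher. The median log2 fold change of the 38 was 0.69, against -0.05 over all genes tested. Genes listed at 0 in both unstimulated libraries enter this median only as lying above it. The genes called were *Ndufb3*, *Ndufa12*, *Ndufc1*, *Ndufa8*, *Ndufs5*, *Ndufs8*, *Ndufb9*, *Ndufb4*, *Ndufc2* and *Ndufa4*. After adjustment 3 passed 0.05 (7.89%, against 4.52% of all genes tested), *Ndufb3*, *Ndufa12* and *Ndufc1*. Both control libraries lay above both unstimulated libraries for 17 subunit genes (44.7%), against 24.8% of all genes and 27.6% of protein-coding genes tested, and below them for 1, against 26.6% of all genes. The number of calls rested on single libraries. It was 5 without Unstimulated 1, 16 without Unstimulated 2, 4 without Control 1 and 5 without Control 2, of which 1 was then lower. It was 3 without either SMF library, which takes no part in the comparison but enters the estimate of the spread. *Ndufb3*, *Ndufa12* and *Ndufc1* stayed called whichever library was left out, and each of the other 7 lost its call for 5 of the 6.

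In SMF-treated cells, 12 of the 38 subunit genes (31.6%) were called higher than in control cells and 0 lower. Of all genes tested 12.5% were called higher and 5.72% lower, and of the protein-coding genes 15.9% were called higher. Among them were *Ndufs6*, *Ndufv1*, *Ndufc2*, *Ndufv2*, *Ndufc1*, *Ndufa10*, *Ndufs3*, *Ndufb6*, *Ndufb8*, *Ndufb3* and *Ndufb11*. After adjustment of limma's p, 0 of the 38 passed 0.05, as did 0.0200% of all genes in this direction, the smallest adjusted p among them was 0.136, and 13 had an unadjusted p under 0.05. The median log2 fold change was 0.98, but the median over all genes tested was itself 0.32 and that of protein-coding genes 0.57. With the libraries shifted to one median the subunit median was 0.64 with 7 genes called, and with the libraries rescaled to one sum of protein-coding FPKM it was 0.68 with 7 called. For 25 subunit genes both SMF libraries exceeded both control libraries (65.8%), against 37.4% of all genes and 48.7% of protein-coding genes. They lay below for 2, *Ndufab1* and *Ndufv3*, against 17.4% of all genes. Without SMF 2, 6 subunit genes were called higher.

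In SMF-treated cells compared with unstimulated cells, 26 of the 38 subunit genes (68.4%) were called higher and 0 lower. Of all genes tested 22.4% were called higher and 14.8% lower, and of the protein-coding genes 28.0% were called higher. Of these 15 passed an adjusted p of 0.05 (39.5%, against 14.2% of all genes tested). The median log2 fold change of the 38 was 1.77, and the median of all genes tested was 0.27. Without SMF 1 14 were called, and without SMF 2 16. The 3 comparisons share libraries, so their counts are not independent of each other.

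**Figure D1:**
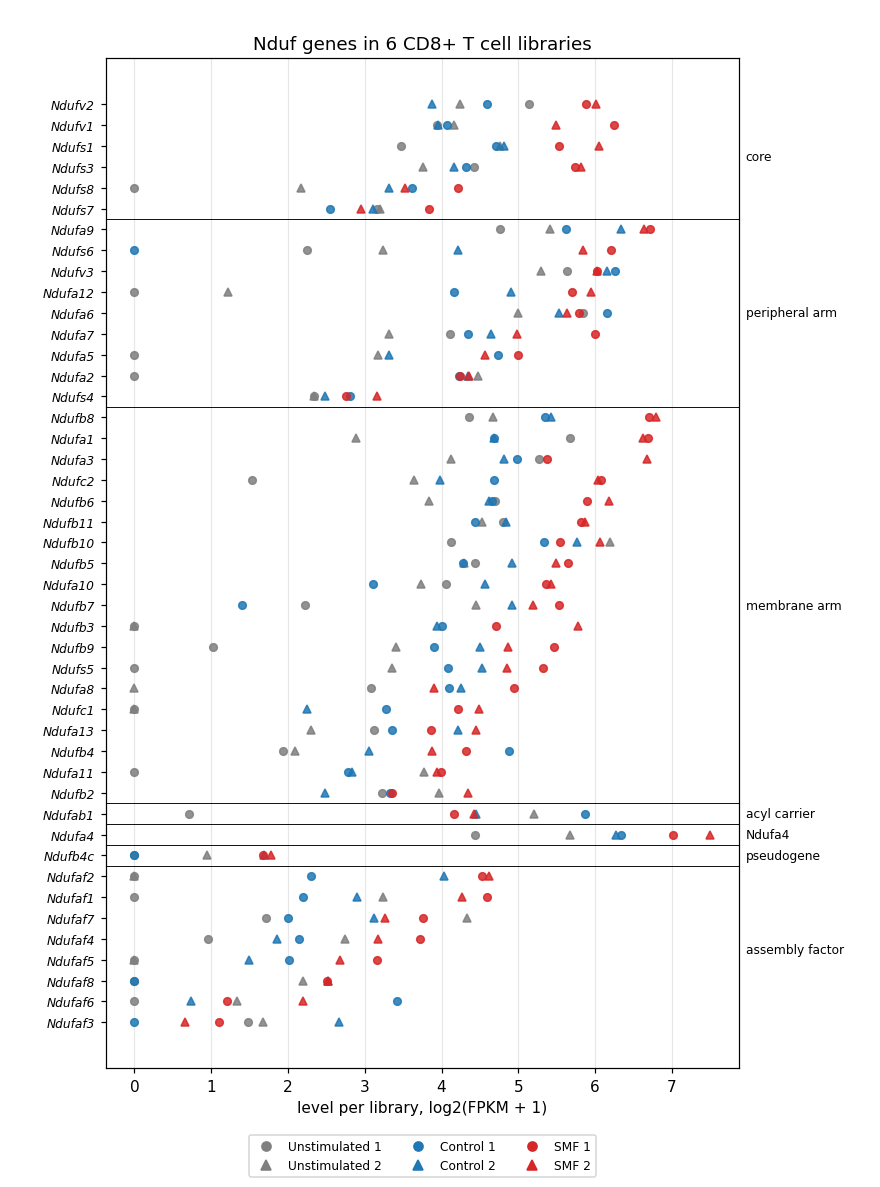
Level of each of 45 tested *Nduf* genes in each of the 6 libraries as log2(FPKM + 1), grouped by class and ordered within a class by the mean FPKM in SMF-treated cells; circles are replicate 1 and triangles replicate 2, grey for unstimulated, blue for control and red for SMF-treated cells. For 23 of the 37 subunit genes drawn both SMF libraries lie to the right of the other 4 libraries, and points at 0 are genes listed at 0. The share of protein-coding genes tested with the SMF pair higher than all 4 others was not counted. It cannot exceed 48.7%, the share of these genes whose SMF pair was higher than the control pair without overlap. Against the unstimulated pair the share was 49.2%.

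The nuclear-encoded core subunits carry the flavin, the iron-sulfur clusters and the ubiquinone site. For the 6 reported here the median differed little between control and unstimulated cells and was higher in SMF-treated cells, while *Ndufs7* and *Ndufs8* departed from it. The median FPKM was 12.2 and 14.7 in unstimulated cells, 17.3 and 14.1 in control cells, and 48.9 and 49.8 in SMF-treated cells. From unstimulated to control cells the median log2 fold change was 0.06 (all genes tested, -0.05), and 1 of the 6 was called, *Ndufs8*, against 12.3% of all genes. From control to SMF-treated cells the median was 1.28, against 0.32 over all genes and 0.57 over protein-coding genes, and 3 of the 6 were called higher, against 12.5% and 15.9%. From unstimulated to SMF-treated cells the median was 1.68 (all genes, 0.27) and 5 were called higher, against 22.4% of all genes.

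*Ndufv1* binds NADH and the flavin and is where electrons enter the enzyme. It was at 14.3 and 16.9 FPKM in unstimulated cells, 15.8 and 14.4 in control cells, and 74.8 and 44.1 in SMF-treated cells. The 4 libraries without the field lay within a narrow range, and both SMF libraries lay above it. SMF-treated cells differed from control cells by a log2 fold change of 1.86 (SE 0.37), and control from unstimulated cells by -0.04 (SE 0.37). Transcripts not annotated as protein-coding held part of this level. The main protein-coding transcript, of 1661 bases, was at 8.91 and 6.89 FPKM in control cells and 17.9 and 29.5 in SMF-treated cells.

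*Ndufv2*, its iron-sulfur partner in the NADH-oxidising module, was at 34.4 and 17.9 FPKM in unstimulated cells, 23.2 and 13.7 in control cells and 58.0 and 63.4 in SMF-treated cells. Unstimulated and control libraries overlapped, and the SMF libraries lay above all 4. The log2 fold change was 1.71 (SE 0.43) for SMF-treated against control cells and -0.46 (SE 0.43) for control against unstimulated cells. The call was lost without SMF 2 (1.65) and without Control 2 (1.35). *Ndufs1*, the largest subunit of the peripheral arm and a carrier of several clusters, was at 10.1 and 26.1 FPKM in unstimulated, 25.1 and 27.2 in control and 45.3 and 65.0 in SMF-treated cells. The SMF libraries were higher than the control libraries without overlap, but the difference of 1.03 (SE 0.49) was not called.

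*Ndufs3* belongs to the module that hands electrons to ubiquinone. It was at 20.4 and 12.5 FPKM in unstimulated cells, 18.9 and 16.9 in control cells and 52.5 and 55.5 in SMF-treated cells. Unstimulated and control libraries overlapped, and the SMF libraries were higher. The gene was called in SMF-treated cells, with a difference from control cells of 1.54 (SE 0.35) on the log2 scale. Its protein-coding transcript was at 12.9 and 9.37 FPKM in control cells and 22.3 and 22.1 in SMF-treated cells. A transcript of 550 bases not annotated as protein-coding was at 0 and 3.51 FPKM in control cells and 27.0 and 29.1 in SMF-treated cells.

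*Ndufs7* and *Ndufs8* hold the last clusters before ubiquinone, and neither was called between SMF-treated and control cells. *Ndufs7* was at 7.96 and 8.21 FPKM in unstimulated cells, 4.86 and 7.61 in control cells, and 13.3 and 6.71 in SMF-treated cells. It was the 1 subunit gene for which both control libraries lay below both unstimulated libraries, and 1 SMF library lay within the range of the other 4 while the other lay above it. *Ndufs8* was listed at 0 and at 3.52 FPKM in unstimulated cells, and was at 11.2 and 8.97 in control cells and 17.5 and 10.5 in SMF-treated cells. Its call between control and unstimulated cells, with a log2 fold change of 2.38 (SE 0.77; adjusted p = 0.113 in limma), thus includes a library listed at 0. It was 1.29 without Unstimulated 1 and 3.46 without Unstimulated 2, and the call was kept in the latter case only.

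**Figure D2:**
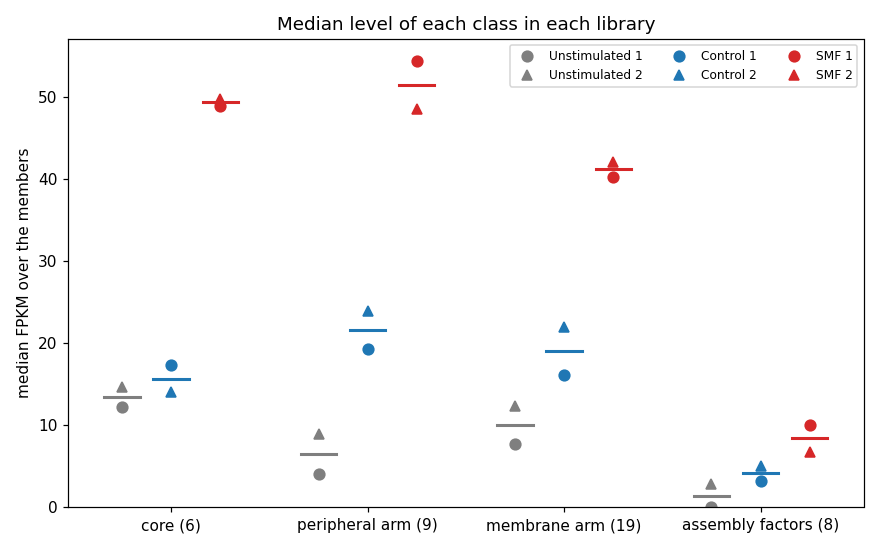
Median FPKM over the members of 4 classes in each library, with the number of members of a class in brackets; circles are replicate 1, triangles replicate 2 and short lines the mean of the pair. The core subunits show unstimulated and control libraries at 12.2 to 17.3 FPKM and SMF libraries at 48.9 and 49.8, whereas the accessory classes also differ between unstimulated and control libraries.

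The 9 accessory subunits of the peripheral arm had a median FPKM of 4.05 and 8.95 in unstimulated cells, 19.3 and 23.9 in control cells and 54.4 and 48.5 in SMF-treated cells. Of the 9, 1 was called higher in control than in unstimulated cells (*Ndufa12*), 1 in SMF-treated than in control cells (*Ndufs6*), and 5 in SMF-treated than in unstimulated cells. The share called was 11.1% in each of the first 2 comparisons, below the 12.3% and 12.5% of all genes and the 13.5% and 15.9% of protein-coding genes, and 55.6% in the last, against 22.4% and 28.0%. The median log2 fold changes were 0.78, 0.70 and 1.78 in these comparisons, where those of protein-coding genes were 0.01, 0.57 and 0.60.

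*Ndufs6*, a zinc-binding subunit that joins the peripheral arm late in assembly, was at 3.76 and 8.47 FPKM in unstimulated cells and at 72.7 and 56.4 in SMF-treated cells. The control libraries were far apart, with Control 1 listed at 0 and Control 2 at 17.6 FPKM. The SMF libraries lay above all others, and the control libraries spanned the unstimulated ones. Against control cells, SMF-treated cells had a log2 fold change of 3.92 (SE 1.28; adjusted p = 0.185 in limma), the largest of the 46 members. It was 1.81 without Control 1 and 6.02 without Control 2, so its size rests on which control library is used. The call was lost without either SMF library and without either unstimulated library, where the log2 fold changes ranged from 3.74 to 4.10. The call of *Ndufs6* was also lost with a pseudocount of 0.1 and with only these 2 groups in the fit. The level of *Ndufs6* was split among transcripts. Its protein-coding transcript of 568 bases was at 26.8 and 35.9 FPKM in SMF-treated cells, and a transcript of 534 bases annotated as a target of nonsense-mediated decay was at 44.1 and 17.3 FPKM there. In Control 2 they were at 6.98 and 4.62 FPKM.

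*Ndufa12* occupies a place in the peripheral arm that an assembly factor holds before it. It was listed at 0 and at 1.34 FPKM in unstimulated cells, and was at 16.9 and 28.8 in control cells and 51.2 and 60.7 in SMF-treated cells. The groups did not overlap at either step. It was called between control and unstimulated cells with a log2 fold change of 3.92 (SE 0.54; adjusted p = 0.0156 in limma). *Ndufa9*, near the junction of the arms, was at 26.2 and 41.6 FPKM in unstimulated, 48.2 and 80.1 in control and 105 and 98.3 in SMF-treated cells, again without overlap between groups, and was called only between SMF-treated and unstimulated cells. *Ndufa7* had 16.3 and 8.95, 19.3 and 23.9, and 63.1 and 30.5 FPKM in the same order and was likewise called only between the last and the first group.

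The remaining members of this class, *Ndufa2*, *Ndufa5*, *Ndufa6*, *Ndufs4* and *Ndufv3*, were not called between SMF-treated and control cells. *Ndufv3*, a subunit of the NADH-oxidising module, was at 48.6 and 38.3 FPKM in unstimulated, 75.4 and 70.5 in control and 64.3 and 64.2 in SMF-treated cells. Its SMF libraries thus lay between the other groups, and its unadjusted p between control and unstimulated cells passed 0.05 with a log2 fold change below the limit of 1. *Ndufs4* stood at 4.05 to 7.96 FPKM in all 6 libraries.

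The 19 accessory subunits of the membrane arm had a median FPKM of 7.68 and 12.3 in unstimulated cells, 16.1 and 22.0 in control cells and 40.3 and 42.1 in SMF-treated cells. Of these 19, 7 were called higher in control than in unstimulated cells, 7 in SMF-treated than in control cells and 14 in SMF-treated than in unstimulated cells, and 0 were called lower in any of the 3. These are 36.8%, 36.8% and 73.7%, against 12.3%, 12.5% and 22.4% of all genes and 13.5%, 15.9% and 28.0% of protein-coding genes. The SMF libraries lay above the control libraries without overlap for 15 of the 19 (78.9%), against 37.4% of all genes and 48.7% of protein-coding genes. The median log2 fold changes were 0.87, 1.16 and 2.08.

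*Ndufb3* and *Ndufc1*, small membrane-spanning subunits, were listed at 0 in both unstimulated libraries, so no fold change is given against them. *Ndufb3* was at 15.1 and 14.3 FPKM in control cells and 25.2 and 53.7 in SMF-treated cells. It had the smallest adjusted p of any subunit gene between control and unstimulated cells (0.0134 in limma). *Ndufc1* was at 8.69 and 3.76 FPKM in control cells and 17.6 and 21.5 in SMF-treated cells. Between SMF-treated and control cells the log2 fold change was 1.27 (SE 0.50) for *Ndufb3* and 1.59 (SE 0.54) for *Ndufc1*, and both were called without adjustment. Both of these calls were lost with a pseudocount of 0.1 and with either scaling of the libraries. The call of *Ndufb3* was also lost with a pseudocount of 0.5, with only these 2 groups in the fit, with the replicate block, and without any single library except SMF 1, with log2 fold changes of 0.74 without SMF 2 and 1.80 without SMF 1. That of *Ndufc1* was lost without any single library except Control 1, with 1.08 without Control 2 and 2.10 without Control 1.

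*Ndufb8* was one of the steadiest members within groups, with 19.4 and 24.5 FPKM in unstimulated cells, 39.8 and 41.9 in control cells and 103 and 109 in SMF-treated cells. The groups were separated at both steps. Its log2 fold change of 1.36 (SE 0.28) between SMF-treated and control cells had an adjusted p of 0.136 in limma, which with that of *Ndufv1* was the smallest among the subunits in that comparison. *Ndufb6*, *Ndufb11* and *Ndufa10* were called in the same comparison, but the call of *Ndufb6* was lost without SMF 2 or Control 2 and that of *Ndufb11* with either scaling of the libraries. *Ndufb6* was at 25.0 and 13.2 FPKM in unstimulated, 24.2 and 23.6 in control and 58.4 and 71.4 in SMF-treated cells, and *Ndufb11* at 26.9 and 22.1, 20.7 and 27.5, and 55.5 and 57.2. In both, the unstimulated and control libraries overlapped, as they did for 4 of the 6 core subunits above. *Ndufa10*, a subunit with the fold of a nucleoside kinase, was at 15.6 and 12.3 FPKM in unstimulated, 7.61 and 22.7 in control and 40.2 and 42.1 in SMF-treated cells. Its call was lost with either scaling, with only the 2 groups in the fit, and without any single library except Control 2, and its log2 fold change of 1.56 became 0.83 without Control 1 and 2.29 without Control 2.

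*Ndufc2*, which pairs with *Ndufc1* in the enzyme, was at 1.90 and 11.5 FPKM in unstimulated cells, 24.7 and 14.8 in control cells and 66.5 and 64.6 in SMF-treated cells, and was called in all 3 comparisons. Its log2 fold change was 1.74 (SE 0.70) from unstimulated to control cells and 1.72 (SE 0.70) from control to SMF-treated cells. The first of these calls was lost under most alternatives, leaving out any single library except Unstimulated 2 among them, and the value was 0.69 without Unstimulated 1 and 2.80 without Unstimulated 2. The second was lost with both lower pseudocounts, without a filter, with either scaling, without the variance trend, with the replicate block and without any single SMF or control library, where the values ranged from 1.37 to 2.08. Others rose from unstimulated to control cells with no call for the further step. *Ndufa8* went from 7.49 and a listing at 0 to 16.1 and 18.1 FPKM, and was at 29.8 and 14.0 in SMF-treated cells. *Ndufs5* was listed at 0 and at 9.23 FPKM in unstimulated, 15.9 and 22.0 in control and 39.2 and 28.0 in SMF-treated cells. *Ndufb4* was at 2.83 and 3.26 FPKM in unstimulated, 28.4 and 7.31 in control and 18.9 and 13.7 in SMF-treated cells. The whole level of *Ndufb4* in Control 1 came from a transcript of 465 bases annotated as retaining an intron. Its protein-coding transcript was at 0 and 2.08 FPKM in unstimulated, 0 and 3.82 in control and 17.9 and 10.4 in SMF-treated cells. *Ndufb9* was at 1.04 and 9.57, 13.9 and 21.6, and 43.1 and 28.2 FPKM. In all of these 4 genes both control libraries lay above both unstimulated ones, and for *Ndufa8* and *Ndufb4* the SMF and control libraries overlapped.

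*Ndufa13*, known also as a partner of STAT3, was at 7.68 and 3.92 FPKM in unstimulated, 9.20 and 17.6 in control and 13.5 and 20.9 in SMF-treated cells, with overlap between SMF-treated and control cells. *Ndufa1* and *Ndufb7* had large fitted differences between SMF-treated and control cells that were not called. *Ndufa1* was at 49.9 and 6.40 FPKM in unstimulated cells, 24.6 and 24.7 in control cells and 103 and 97.3 in SMF-treated cells. *Ndufb7* was at 3.67 and 20.9, 1.64 and 29.3, and 45.3 and 35.6 FPKM. The spread lay between the unstimulated libraries for *Ndufa1* and between the libraries of both runs for *Ndufb7*.

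**Figure D3:**
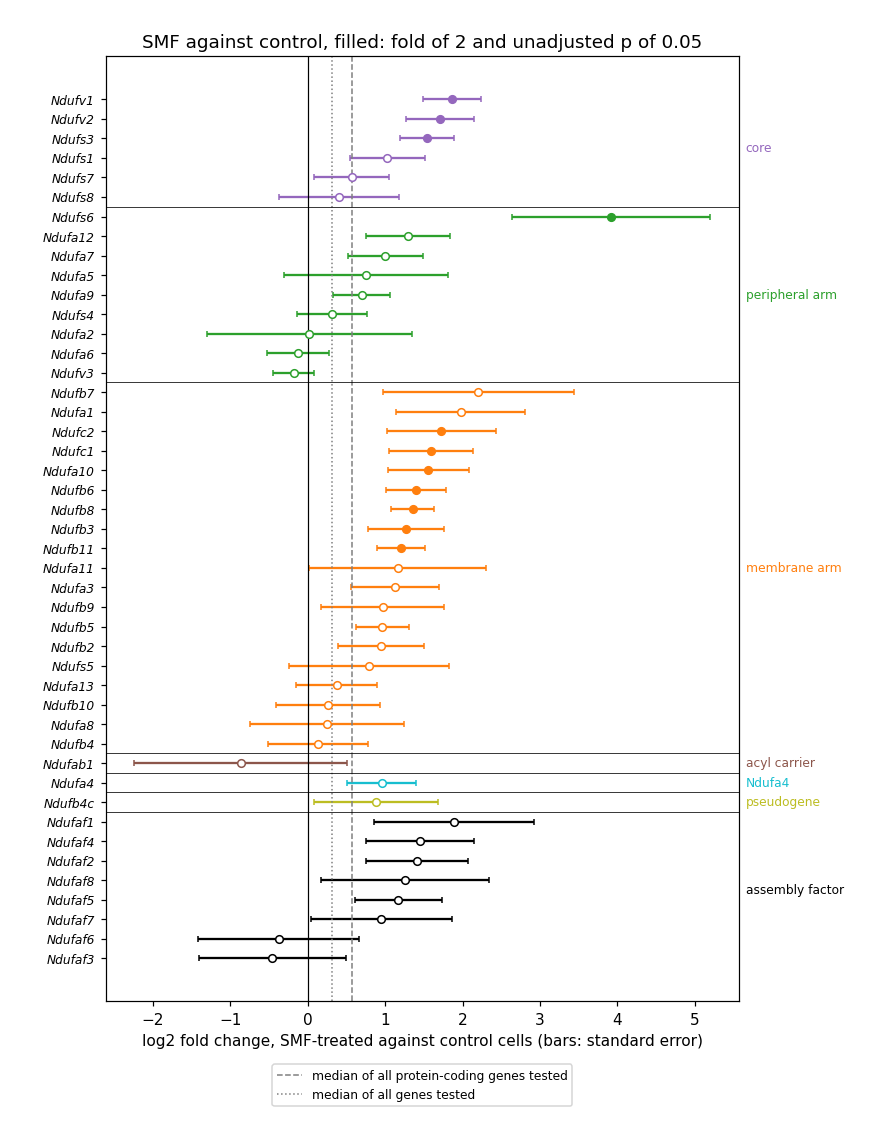
Log2 fold change of SMF-treated against control cells for 45 tested *Nduf* genes, by class, with bars of 1 SE from the limma fit on 2 libraries per group; filled circles mark genes that were called, and vertical lines mark the medians of all genes tested (dotted, 0.32) and of the protein-coding genes tested (dashed, 0.57). The 11 filled genes are core or accessory subunits, and all 8 assembly factors are open.

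Some *Nduf* names were not counted in the class of either arm here. *Ndufab1*, the mitochondrial acyl carrier protein, was at 0.64 and 35.7 FPKM in unstimulated cells, 57.3 and 20.9 in control cells and 17.0 and 20.5 in SMF-treated cells. It was not called in any comparison, and Unstimulated 1 and Control 1, from the same run, gave its lowest and highest values. *Ndufa4*, now assigned to cytochrome c oxidase, was at 20.6 and 49.9 FPKM in unstimulated, 80.0 and 76.5 in control and 129 and 180 in SMF-treated cells, and was called higher in control than in unstimulated cells with a log2 fold change of 1.26 (SE 0.45). The pseudogene *Ndufb4c* stayed at or below 2.44 FPKM in every library and was not called.

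The 8 assembly factors were low transcripts, with medians of 0 and 2.88 FPKM in unstimulated cells, 3.23 and 5.06 in control cells and 10.1 and 6.73 in SMF-treated cells. In control compared with unstimulated cells, 2 were called higher, *Ndufaf2* and *Ndufaf5*, and in SMF-treated compared with unstimulated cells 3, with *Ndufaf1* in addition. These are 25.0% and 37.5% of the 8, against 12.3% and 22.4% of all genes and 13.5% and 28.0% of protein-coding genes. Between SMF-treated and control cells 0 of the 8 were called and 0 had an unadjusted p under 0.05 in limma, while for 5 of them (62.5%) both SMF libraries exceeded both control libraries, against 37.4% of all genes and 48.7% of protein-coding genes. Their median log2 fold change there was 1.21, beside 0.98 for the subunits. No test of a difference between subunits and assembly factors was made. Without Unstimulated 1, where 5 of the 8 were listed at 0, the median from unstimulated to control cells went from 0.55 to -0.51, and 2 genes were still called. The counts between SMF-treated and control cells were 2 without either unstimulated library, 2 without Control 1 (1 of them lower) and 1 without Control 2. The count from unstimulated to control cells was 4 without Control 2, of which 1 was lower.

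*Ndufaf2* holds the place of *Ndufa12* during assembly. It was listed at 0 in both unstimulated libraries and was at 3.92 and 15.3 FPKM in control cells and 22.0 and 23.7 in SMF-treated cells. Its difference between control and unstimulated cells had an adjusted p of 0.0391 in limma, the smallest among the assembly factors. *Ndufaf5*, which modifies *Ndufs7*, was also listed at 0 in both unstimulated libraries and was at 3.05 and 1.80 FPKM in control and 7.96 and 5.41 in SMF-treated cells. For both genes the 3 groups were in order without overlap.

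*Ndufaf1*, part of the complex that assembles the membrane arm, was listed at 0 and at 8.43 FPKM in unstimulated cells and was at 3.59 and 6.44 in control and 23.2 and 18.3 in SMF-treated cells. For SMF-treated against control cells its log2 fold change was 1.89 (SE 1.03), the largest among the assembly factors. *Ndufaf4*, a factor of the ubiquinone module, was at 0.95 and 5.69, 3.41 and 2.62, and 12.2 and 8.06 FPKM. *Ndufaf7*, a mitochondrial methyltransferase, was at 2.28 and 19.05, 2.99 and 7.73, and 12.5 and 8.58 FPKM. In each of these 3 the SMF libraries lay above the control libraries, and the unstimulated libraries were widely apart.

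*Ndufaf3*, the partner of *Ndufaf4*, was at 1.80 and 2.18 FPKM in unstimulated cells, at 0 and 5.37 in control cells and at 1.15 and 0.58 in SMF-treated cells, and its SMF libraries lay below the unstimulated ones. *Ndufaf6* was listed at 0 and at 1.52 FPKM in unstimulated, 9.66 and 0.66 in control and 1.3 and 3.60 in SMF-treated cells. *Ndufaf8*, a stabiliser of *Ndufaf5*, was listed at 0 in Unstimulated 1 and Control 1 and was at 3.59 in Unstimulated 2, 4.76 in Control 2 and 4.68 and 4.76 FPKM in SMF-treated cells. The direction between SMF-treated and control cells depended on the control library for each of these 3 genes.

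Of 11 further assembly factors without an *Nduf* name, 10 were found. Of the 10, 0 were called higher and 1 lower in control than in unstimulated cells, and with SMF-treated against control cells 2 were called higher and 1 lower. Of all genes, 12.3% were called higher and 12.6% lower in the first comparison, and 12.5% and 5.72% in the second, so these few calls lie near the background. *Ecsit*, a partner of *Ndufaf1*, was at 77.1 and 67.1 FPKM in unstimulated cells, 53.0 and 50.5 in control cells and 27.5 and 19.4 in SMF-treated cells. It was called lower in SMF-treated than in control cells, with a log2 fold change of -1.13 (SE 0.30; adjusted p = 0.159 in limma). *Tmem70*, a membrane protein that helps to build the membrane arm and ATP synthase, was called higher, at 2.18 and 6.87 FPKM in control and 22.0 and 16.6 in SMF-treated cells. *Nubpl*, which delivers iron-sulfur clusters to the enzyme, was called higher too, at 0 and 0.82 FPKM in control and 5.16 and 2.15 in SMF-treated cells. The call lower in control cells was *Dmac2*, at 27.5 and 16.4 FPKM in unstimulated and 10.3 and 4.07 in control cells. The 7 mitochondrially encoded core subunits, *mt-Nd1* to *mt-Nd6* with *mt-Nd4l*, were listed at 0 in all 6 libraries, so the membrane arm's own core was not analysed here.

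Unstimulated and control libraries of the same replicate number shared a run date, so their difference could be taken within each run. For the 38 subunit genes, 20 were higher in control cells in both runs, against 30.9% of all genes tested. Only *Ndufs7* and *Ndufv2* were lower in both runs, and 15 changed in opposite directions, against 27.2% of all genes. The median difference on the log2 scale was 0.55 in June 2017 and 0.65 in November 2017, where the median of all genes was 0.00 in each. Control cells were higher by at least 1 in both runs for 7 subunit genes, *Ndufa12*, *Ndufa8*, *Ndufb3*, *Ndufb9*, *Ndufc1*, *Ndufs5* and *Ndufs8*, against 11.4% of all genes. Of the assembly factors, *Ndufaf2* and *Ndufaf5* did so, while 5 of the 8 changed in opposite directions.

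*Ndufa12* and *Ndufb3* were among the largest differences in both runs, with log2 differences of 4.17 and 3.67 for the first and 4.01 and 3.94 for the second. Among members with opposite directions in the runs, *Ndufab1* was at 5.15 in June 2017 and -0.74 in November 2017, *Ndufa2* at 4.22 and -0.13, and *Ndufaf6* at 3.41 and -0.60. *Ndufa5*, at 4.73 and 0.15, lay further apart between the runs than *Ndufa2* and *Ndufaf6* without a change of direction. Each of these was at or near 0 in Unstimulated 1. The core subunits *Ndufv1* (0.13 and -0.21) and *Ndufs3* (-0.11 and 0.41) stayed close to 0 in both runs. With the run as a term in the limma fit, an alternative chosen after seeing the data, 9 subunit genes and 2 assembly factors were called, and *Ndufc2* was the 1 call lost.

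**Figure D4:**
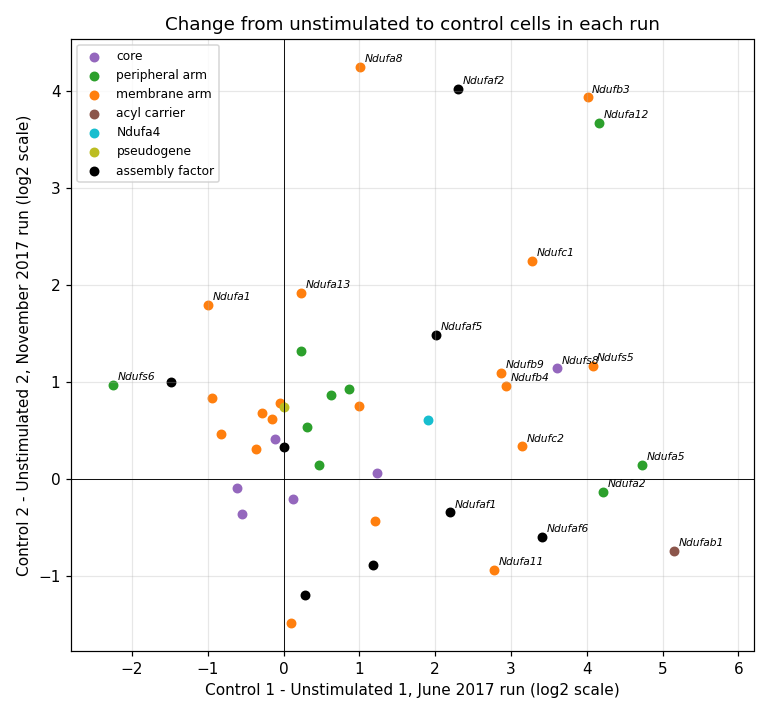
Difference of log2(FPKM + 1) between control and unstimulated cells in the June 2017 run (horizontal axis) and the November 2017 run (vertical axis) for 45 tested *Nduf* genes, coloured by class. *Ndufb3*, *Ndufa12*, *Ndufc1* and *Ndufaf2* lie far up and right, most core subunits lie near the origin, and *Ndufab1*, *Ndufa2* and *Ndufaf6* lie far right at or below 0 on the vertical axis.

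A full order, with both unstimulated libraries below both control libraries and these below both SMF libraries, was found for 10 of the 38 subunit genes, against 11.0% of all genes and 14.8% of protein-coding genes tested. These were *Ndufa12*, *Ndufa4*, *Ndufa7*, *Ndufa9*, *Ndufb3*, *Ndufb8*, *Ndufb9*, *Ndufc1*, *Ndufc2* and *Ndufs5*, none of them a core subunit. Replicates were at least 1 apart on the log2 scale for 16 of the 38 subunit genes in unstimulated cells, for 8 in control cells and for 4 in SMF-treated cells. Of the protein-coding genes tested, 27.9%, 28.9% and 14.7% were so far apart in these groups. In Unstimulated 1, 9 of the 38 were listed at 0, against 12.9% of the protein-coding genes tested. In Unstimulated 2 there were 3 (against 6.15%). Control 1 had 2 (against 13.7%), and the other libraries had 0. Unstimulated 1 and Control 1 had the least covered bases, at 67.4 and 64.4 Mb, and the part of depth in these listings was not tested.

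The subunit transcripts were short. The most abundant transcript had a median length of 693.5 bases over the 38 subunit genes, 1322 over the 8 assembly factors and 2656 over the protein-coding genes tested. For 14 of the 38, annotated exons were faced by those of a neighbouring gene on the other strand, among them *Ndufs6*, *Ndufs3*, *Ndufb6*, *Ndufb11* and *Ndufa13*. The file headers show that reads were assigned by strand. Among the 24 tested subunit genes that face no such exon, 10 were called higher in control than in unstimulated cells, 7 in SMF-treated than in control cells, and 17 in SMF-treated than in unstimulated cells. These are 41.7%, 29.2% and 70.8%, against 12.3%, 12.5% and 22.4% of all genes and 13.5%, 15.9% and 28.0% of protein-coding genes.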

How the data were processed

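RNA of 6 libraries, 2 each of unstimulated, control and SMF-treated CD8+ T cells, was compared. Per the file headers and the submitters' processing notes, the authors used Trimmomatic 0.36, HISAT2 (version not given in the sources used here) and StringTie 1.3.5 on GRCm38 with GENCODE M19, restricted to annotated transcripts and with stranded reads. The deposited files hold, as attributes of each transcript, FPKM and TPM, normalized by the authors' StringTie runs, and coverage, which is not normalized. The FPKM of 137767 transcripts was summed per gene identifier. A further deposited gene table holds 3 value columns, none of which could be matched to a sample, and was not used. The series record says that its samples were exchanged after the first deposit.

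Depth is the coverage times the length, summed over transcripts, from 64.4 to 259 Mb. The files give no read counts and none could be recovered, which leaves counting intervals out, and a 0 is reported as a listing. Gene types came from GENCODE M21 (54409 identifiers matched, 37 not), promoters from RefSeq on GRCm38.p6.

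Values were fitted as log2(FPKM + 1) with limma 3.58.1 in R 4.3.3 on all 3 groups with a variance trend, for the 14991 genes whose mean reached 1 FPKM, leaving 3 residual degrees of freedom. The procedure was tested on simulated data. Other steps used Python 3.11.15. The members and the lists (classes by symbol, further assembly factors, cell type markers) were chosen with earlier results of these data known. Values in every library are given for 6 core subunits, the *Nduf* genes of the study's primer list (*Ndufs6*, *Ndufa10*, *Ndufa13*, *Ndufc1*), the largest calls of each comparison, all assembly factors, members listed at 0 in a group and those most opposite between the runs; other members named were added after their values were seen. A further member and a B cell marker are not reported here, and the member enters only the counts and medians over all subunits. Alternatives were other pseudocounts (0.1 and 0.5), filters (none, or a mean of 5 FPKM), gene TPM, scalings, variance models, fold and p limits, blocks and leaving out each library.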

Additional observations from a re-analysis of the deposited data

How the results depend on the processing

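The direction of the subunit medians was kept under every alternative run in all 3 comparisons. Their counts of calls were less stable. For control against unstimulated cells the 10 calls became 5 with a pseudocount of 0.1, 6 with gene TPM, 6 without the variance trend, 3 with only the 2 groups compared in the fit and 3 at an adjusted p of 0.05, and ranged from 3 to 16 when a library was left out. For SMF-treated against control cells the 12 calls became 7 with libraries shifted to one median, 7 with libraries rescaled to one protein-coding sum and 0 at an adjusted p of 0.05, and ranged from 6 to 12. Their median of 0.98 moved to 1.16 with gene TPM, 0.64 with the shift and 0.68 with the rescaling, and ranged from 0.95 to 1.16. For SMF-treated against unstimulated cells the 26 calls became 17 with the rescaling and 15 at an adjusted p of 0.05, and ranged from 14 to 22, and the median became 1.31 with the rescaling. For the assembly factors, the 2 calls of control against unstimulated cells became 1 at a mean of at least 5 FPKM, which leaves 4 of the 8 tested, and 1 at an adjusted p of 0.05. They ranged from 2 to 4 when a library was left out, and the median of 0.55 from -0.51 to 1.51. For SMF-treated against control cells the 0 calls became 1 without the variance trend and 2 with only the 2 groups compared, and ranged from 0 to 2, and the median ranged from 0.76 to 1.41. For SMF-treated against unstimulated cells the median of 1.51 became 2.74 with a pseudocount of 0.1, and was 0.54 without Unstimulated 1 and 2.50 without Unstimulated 2, the ends of its range when a library was left out. The cause of these shifts was not tested, except that leaving out a library or a group leaves fewer residual degrees of freedom. Among single genes, *Ndufv1* turned to 0.047 with the shift between control and unstimulated cells. When a library was left out, it ranged from -0.15 to 0.070, and *Ndufs3* from -0.18 to 0.48. Between SMF-treated and control cells *Ndufaf3* turned to 0.31 with a pseudocount of 0.1. Leaving out a library gave -1.79 to 0.88 for *Ndufaf3*, -1.71 to 0.97 for *Ndufaf6* and -0.009 to 2.52 for *Ndufaf8*.

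The replicate numbers come from the labels, which do not say that a number marks a shared animal. The correlation of replicate differences was 0.10 between unstimulated and control cells, 0.02 between SMF-treated and control cells and 0.03 between SMF-treated and unstimulated cells. With the replicate block, 10, 14 and 26 subunit genes and 2, 0 and 3 assembly factors were called in control against unstimulated, SMF-treated against control and SMF-treated against unstimulated cells. The medians with the block were unchanged at 0.69, 0.98 and 1.77 for the subunits and 0.55, 1.21 and 1.51 for the assembly factors. In SMF-treated against control cells 10 of the 12 calls were kept and 4 were gained.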
